A study of Sus scrofa with 20 samples.

Results

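Among the uteri of 15 inseminated sows, the libraries FR1_1, FR1_4, FR2_3 and FR3_4 held less RNA of WNT7A and CYP26A1 than all other 11 libraries. They are compared here with those 11 inseminated libraries. They are 4 of the 20 libraries of the series: 2 of 5 in FR1, 1 of 5 in FR2 and 1 of 5 in FR3. The 4 were chosen by measured levels of these same libraries, as samples with low epithelial and high muscle or stroma signal. Every gene of the contrast therefore counts as used in the choice, and its values are given as a description with no test.

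Sows of a Large White and Landrace cross, with a mean parity of 3.53 ± 1.12, were used with semen of 3 Pietrain boars. FR1 sows received the sperm-rich fraction of the ejaculate alone, FR2 sows the rich and intermediate fractions, and FR3 sows the rich, intermediate and poor fractions. CONTROL sows were not inseminated. All were slaughtered 6 days after the start of estrus, and messenger RNA of the uterus was sequenced, with 1 library per sow. The labels give no genotype other than wild type and do not say which sows carried embryos, so semen and early pregnancy cannot be told apart in the inseminated groups. They do not say either which layers of the uterine wall a tissue piece held. The tables' column numbers are those used here, and they could be matched to a treatment group but not to an individual sow.

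The 4 libraries held 38109776 to 62939044 counts, the other 11 inseminated libraries 32978955 to 55083103 and the CONTROL libraries 39919372 to 50859638. Levels are counts per 1000000 counts (CPM) after scaling each library by the trimmed mean of M values. Log2 differences come from a model with treatment group as a term, so each of the 4 is set against libraries of its own group. A gene is said to separate the sets when all 4 libraries lay below, or all 4 above, the other 11. Of 17745 genes measured, 1327 (7.48%) had the 4 libraries below all 11 and 218 (1.23%) had them above. With scaling by library totals alone, the same counts were 1017 and 357. In the fit 9142 of the 17745 genes were lower in the 4 and 8603 higher. The 7.48% and 1.23% are the background for the list counts below. With a library left out fewer libraries have to separate, and filter and scaling were also redone. The parts of these in the changed counts were not tested. The number below ran from 1082 without FR3_1 to 1647 without FR2_3. The number above was larger without FR1_1 (329), FR1_4 (336), FR2_3 (631), FR2_5 (348), FR3_1 (390), FR3_2 (390), FR3_3 (526) or FR3_4 (878).

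The inner surface of the uterus is a luminal epithelium that dips into glands, with a stroma, vessels and outer layers of smooth muscle around it. In the days after ovulation the glands and the lumen release histotroph, the mixture of ions, sugars, proteins and lipids that feeds the pig embryo before it attaches. Progesterone, retinoic acid, Wnt and hedgehog signals pass between epithelium and stroma at this stage. In a whole piece of tissue, fewer cells of a type and less RNA per cell cannot be told apart.

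The label of poor epithelium held for some epithelial genes and not for others. Of the 7 genes that marked the choice, WNT7A and CYP26A1 separated the 4 libraries from the 11, and ELF3, EPCAM, MYH11, GLI1 and PGR did not. WNT7A, a Wnt ligand made by the uterine epithelium, stood at 4.58, 0, 0 and 11.2 CPM in FR1_1, FR1_4, FR2_3 and FR3_4, against 94.8 to 456 (median 172) CPM in the 11 and 178, 9.22, 35.6, 36.9 and 108 CPM in CONTROL_1 to CONTROL_5. CYP26A1, the enzyme that breaks down retinoic acid, stood at 42.4, 0, 0.0957 and 87.1 CPM in the 4, in the same order of libraries, against 449 to 3020.5 (median 1299.9) CPM in the 11. The CONTROL libraries held 102, 222, 9.40, 0 and 869.6 CPM of CYP26A1. FR1_4 and FR2_3 were at or near 0 for both genes, while FR1_1 and FR3_4 kept a low level. The fitted log2 differences were -6.17 for WNT7A and -5.75 for CYP26A1. Just inside the boundary lay FR3_4 with 11.2 CPM of WNT7A and 87.1 CPM of CYP26A1, and just outside it FR2_5 with 94.8 and 449 CPM.

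EPCAM, an adhesion molecule found on most epithelia, stood at 135, 128, 172 and 129 CPM in the 4 libraries, in the order given above, against 146 to 244 (median 181) CPM in the 11 and 253 to 553 CPM in CONTROL. FR2_3 lay well inside the range of the 11 and the other 3 lay just under it. ELF3, an epithelial transcription factor, stood at 5.71, 9.33, 10.1 and 5.84 CPM in the 4 against 6.71 to 25.7 (median 11.4) CPM in the 11, and at 11.3 to 218 CPM in CONTROL. MYH11, the heavy chain of smooth muscle myosin, stood at 3147, 3501, 1545 and 2722 CPM in the 4 against 484 to 2223 (median 1415) CPM in the 11. FR1_1, FR1_4 and FR3_4 were above all 11, and FR2_3 was not. GLI1, a hedgehog target, stood at 33.9, 22.3, 14.1 and 35.8 CPM in the 4 and at 7.10 to 25.3 (median 15.5) CPM in the 11. PGR, the progesterone receptor, stood at 34.0, 30.9, 51.1 and 24.8 CPM in the 4 and at 15.3 to 41.2 (median 27.0) CPM in the 11. The libraries of both sets overlapped for ELF3, GLI1 and PGR.

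**Figure D1:**
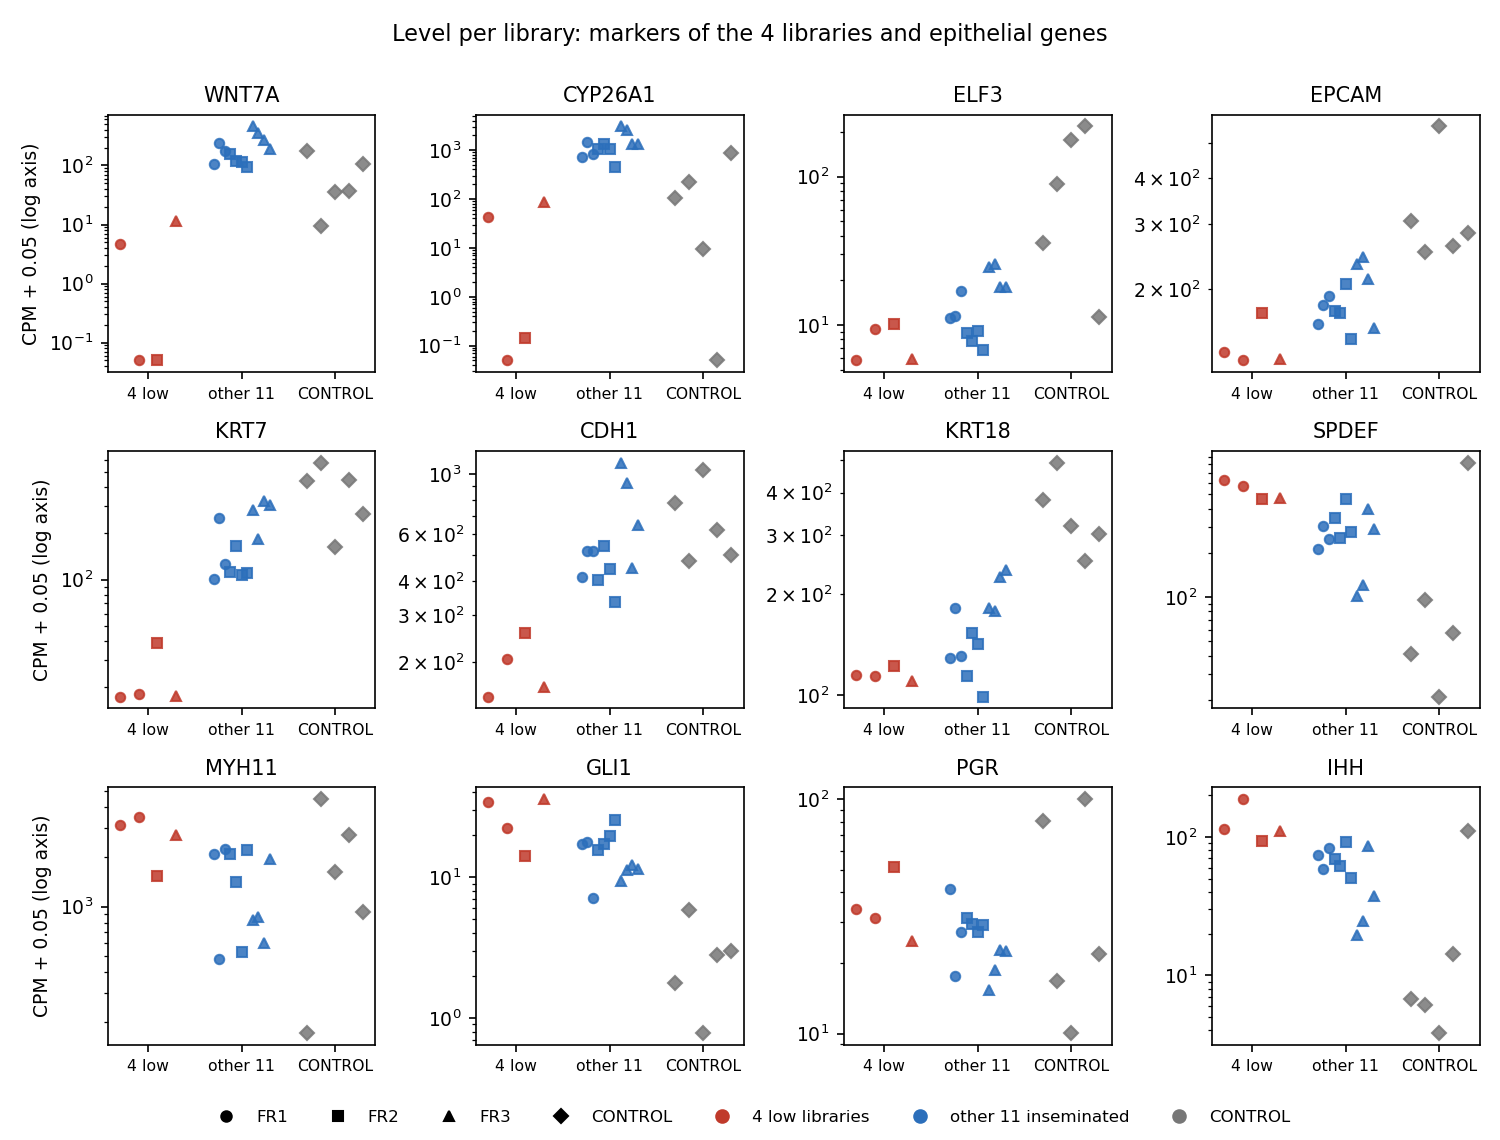
Level of 12 genes in each of the 20 libraries, as CPM plus 0.05 on a log axis, with the 4 libraries on the left, the other 11 inseminated libraries in the middle and CONTROL on the right. Marker shape gives the treatment group. WNT7A, CYP26A1, KRT7 and CDH1 separate the 4 from the 11 downwards, SPDEF and IHH upwards, and the other 6 genes overlap.

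Of 29 measured genes of a uterine epithelium list, 11 had the 4 libraries below all 11, 1 had them above and 17 overlapped. The median log2 difference was -0.55, beside -0.02 over all 17745 genes. It was -0.22 without FR3_4 and -0.79 without FR2_3. The mean of log2(CPM + 0.5) over the list ran from 5.28 to 5.62 in the 4 libraries, from 5.96 to 6.74 in the 11 and from 6.52 to 6.86 in CONTROL, so the 4 lay below every other library in the list's mean.

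The keratins of simple epithelia, which form the cells' inner filaments, were not uniformly low. KRT7 stood at 17.3, 18.2, 38.6 and 17.5 CPM in the 4 libraries against 100.4 to 323 (median 166) CPM in the 11, a log2 difference of -2.82. KRT8 stood at 478, 529, 521 and 447 CPM in the 4 against 847 to 2328 (median 1331) CPM in the 11 (-1.57), and KRT19 at 515, 447, 480.3 and 471 CPM in the 4 against 818 to 1906 (median 937) CPM in the 11 (-1.27). KRT18, the usual filament partner of KRT8, stood at 115, 114, 122 and 110.2 CPM in the 4 against 99.1 to 236 (median 153) CPM in the 11 and overlapped. CLDN4, a tight junction claudin, stood at 34.6, 34.5, 91.2 and 31.8 CPM in the 4 against 146 to 327 (median 259.8) CPM in the 11, with FR2_3 the highest of the 4 for both KRT7 and CLDN4. CDH1, the cadherin that joins epithelial cells, stood at 149, 206, 257 and 162 CPM in the 4 and 336 to 1101 (median 517) CPM in the 11 (-1.41). WNT7B, a Wnt ligand, and OVOL1, AP1M2 and MAL2, a transcription factor and 2 proteins of apical and basolateral sorting, also lay below all 11 with log2 differences of -4.01, -0.87, -0.70 and -0.61.

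Other epithelial genes were at like levels in both sets or higher in the 4. ESRP1, an epithelial splicing regulator, stood at 56.7, 53.6, 76.6 and 61.1 CPM in the 4 and 55.6 to 79.7 (median 65.2) CPM in the 11. SOX17, a transcription factor of the endometrial epithelium and of endothelium, stood at 860.3, 760.4, 693 and 549 CPM in the 4 and 581 to 937 (median 731) CPM in the 11. The log2 differences of both were small, -0.08 for ESRP1 and -0.14 for SOX17, and their signs turned under some alternatives (ESRP1 to 0.02 with library totals alone, SOX17 to 0.09 without FR3_4). FOXA2, a transcription factor of uterine glands, stood at 86.0, 102, 98.5 and 80.8 CPM in the 4 and 16.1 to 85.4 (median 51.8) CPM in the 11, with 3 of the 4 above all 11. SPDEF, a transcription factor of secretory epithelia, stood at 628, 570.1, 467 and 469.9 CPM in the 4, above all 11 at 102 to 463 (median 278) CPM, and at 21.0 to 821 CPM in CONTROL.

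Genes of motile cilia, which in the uterus belong to ciliated epithelial cells, were higher in the 4 libraries. All 19 measured members had a positive log2 difference, and in FR1, FR2 and FR3 taken alone the 19 were again all higher. The median was 0.91 and 1 member separated the sets. FOXJ1, the regulator of the ciliated state, stood at 51.4, 71.4, 107 and 47.4 CPM in the 4 against 11.2 to 53.6 (median 35.6) CPM in the 11. CAPS, a calcium-binding protein abundant in ciliated cells, stood at 12.9, 22.3, 16.6 and 13.8 CPM in the 4, above 3.05 to 11.6 CPM in the 11. The list's mean of log2(CPM + 0.5) was 3.31 to 3.96 in the 4, 1.76 to 3.23 in the 11 and 2.47 to 3.38 in CONTROL. The 4 libraries thus had low levels of some epithelial genes together with high levels of others, and they are called here by their rule and not as uteri poor in epithelium.

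Of 33 measured genes of epithelial junctions and adhesion, 14 had the 4 libraries below all 11, none lay above and 19 overlapped, with a median log2 difference of -0.74. The median was -0.43 without FR3_4 and -1.08 without FR2_3. CLDN8, a barrier-forming claudin, stood at 3.55, 0.132, 1.51 and 4.97 CPM in the 4 against 49.3 to 184 (median 84.7) CPM in the 11 (-5.18). LAMA3, the alpha chain of laminin 332 under epithelial cells, stood at 8.90, 6.02, 7.94 and 5.84 CPM in the 4 against 93.7 to 649.8 (median 154) CPM in the 11 (-4.90). ITGB4, the integrin chain of the hemidesmosome that binds that laminin, stood at 51.1, 41.3, 43.3 and 46.3 CPM in the 4 against 233 to 829 (median 354) CPM in the 11, and its partner ITGA6 at 104, 88.9, 117 and 103 CPM in the 4 against 134 to 649 (median 229.7) CPM in the 11 (-1.20). LAMB3, the beta chain of laminin 332, did not follow LAMA3. It stood at 6.04, 4.52, 7.49 and 1.76 CPM in the 4 and 2.10 to 10.8 (median 5.26) CPM in the 11, with overlap.

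Desmosomal and tight junction genes were lower too. DSC2, a desmosomal cadherin, had a log2 difference of -1.56, PERP, a desmosomal membrane protein, of -1.36, and OCLN, the tight junction protein occludin, of -1.22, and each lay below all 11. CLDN23 and NECTIN4, an adhesion molecule of adherens junctions, had log2 differences of -3.14 and -2.02. CLDN10, a claudin that forms ion-selective pores, went the other way at 104, 153, 116 and 128 CPM in the 4 against 14.4 to 107 (median 50.8) CPM in the 11, with FR1_1 inside the range of the 11. CLDN1 was also higher in the 4, at 17.6 to 27.2 CPM in the 4 against 6.43 to 21.5 CPM in the 11, with overlap.

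**Figure D2:**
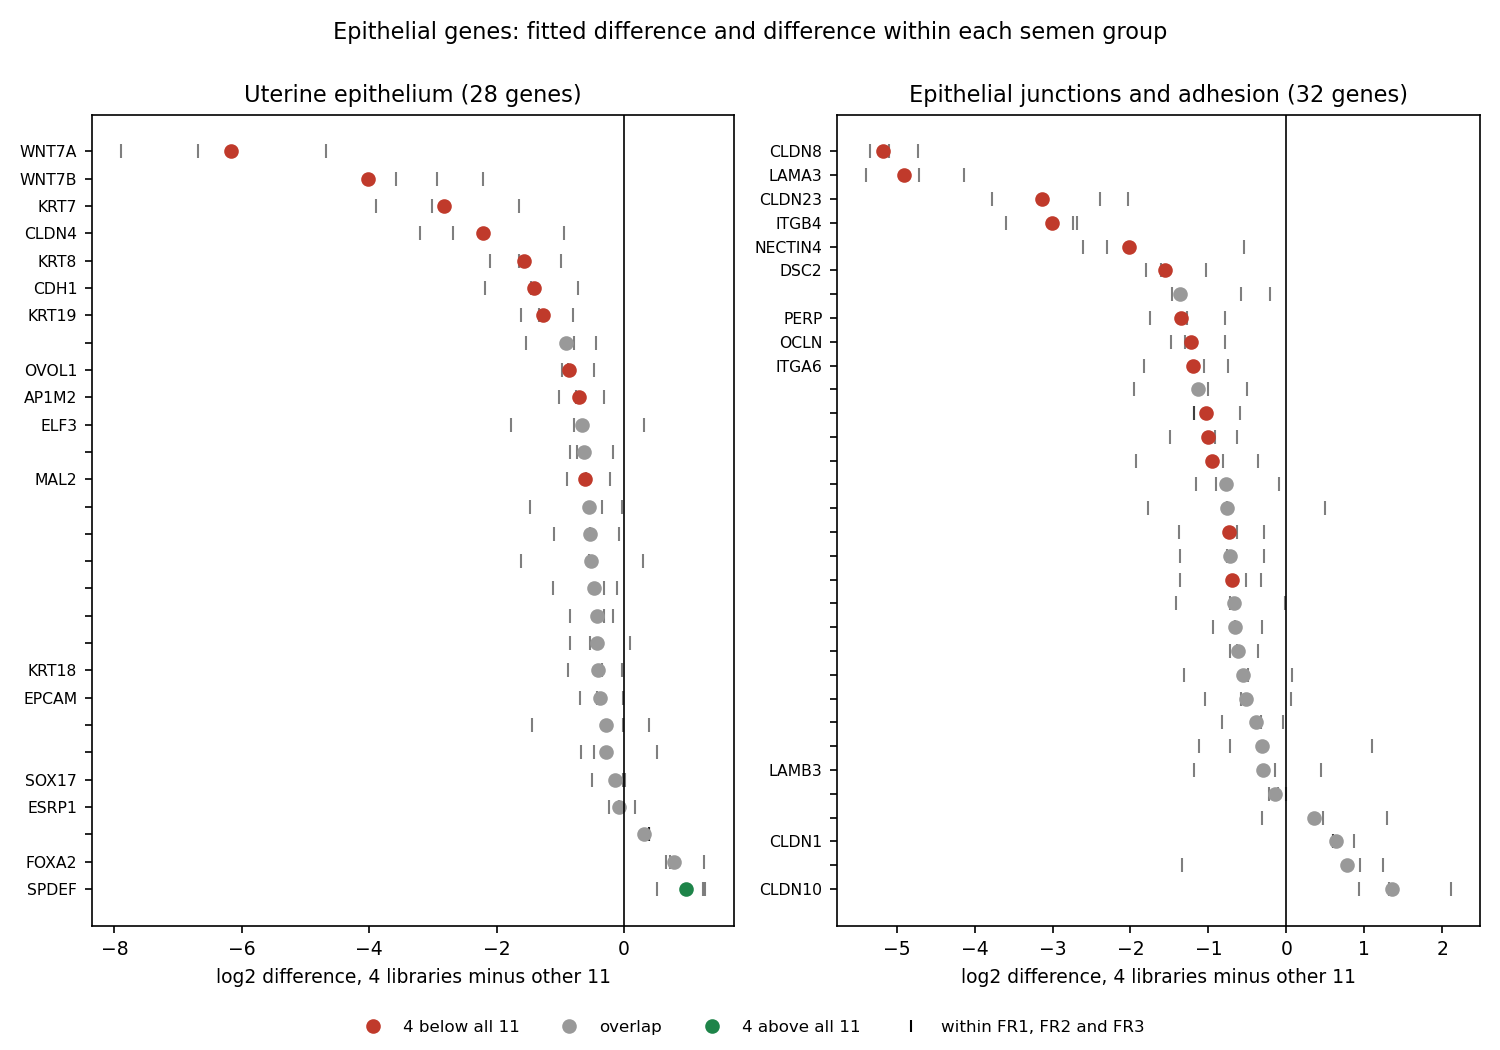
Fitted log2 difference of the 4 libraries minus the other 11 for 28 of the 29 measured genes of uterine epithelium (left) and 32 of the 33 of junctions and adhesion (right), with names for the genes described in the text. Dots are the fitted values, red where all 4 lay below the 11, green where all 4 lay above and grey where the sets overlap, and ticks are the differences within FR1, FR2 and FR3. WNT7A reaches -6.17 and CLDN8 -5.18, while SPDEF reaches 0.98 and CLDN10 1.36.

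With a fitted log2 difference of at least 1 in size as well, 844 genes (4.76%) had the 4 libraries below all 11 and 63 (0.355%) had them above. The 63 became 96 to 297 with FR1_1, FR1_4, FR2_3, FR2_5 or any FR3 library left out in turn. Again there were fewer libraries to separate, and filter and scaling were redone. At least an 8-fold difference was fitted for 205 of the 844 and at least a 32-fold difference for 71. The 844 genes took 2.85 to 3.31% of all counts in the 4 libraries, 7.56 to 19.0% in the 11 and 4.67 to 10.2% in CONTROL. The rank correlation of levels over all genes between pairs of libraries averaged 0.974 within the 4, 0.940 between the 4 and the 11, and 0.971 within the 11. This correlation is across genes, which are not independent replicates.

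The widest gap between the sets was that of STEAP4, a metalloreductase of the plasma membrane, at 4.17, 4.65, 4.35 and 5.03 CPM in the 4 libraries against 98.2 to 327 (median 144) CPM in the 11. The 4 values agree closely and the lowest of the 11 is far above them. RNF152, a ubiquitin ligase of lysosomes, stood at 3.24, 1.60, 0.574 and 2.27 CPM in the 4 against 57.5 to 225 (median 83.9) CPM in the 11. ZNF750, a transcription factor of epithelial differentiation, stood at 1.44, 0.681, 1.57 and 0.968 CPM in the 4 against 31.6 to 98.6 (median 45.4) CPM in the 11. CLDN9, another claudin, stood at 5.47, 0.768, 1.40 and 5.18 CPM in the 4 against 91.3 to 392 (median 168) CPM in the 11. The CONTROL libraries also lay below all 11 for STEAP4 (5.25 to 44.5 CPM), RNF152 (1.34 to 54.0 CPM) and CLDN9 (0.588 to 76.7 CPM), and reached into their range for ZNF750 (0.986 to 41.0 CPM). These genes were picked with the 11 high, so nothing is read from the place of CONTROL.

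RAB27B, a GTPase that docks secretory vesicles at the membrane, stood at 15.6, 2.63, 4.61 and 15.2 CPM in the 4 against 200.2 to 1384 (median 537) CPM in the 11. UPK3A, a uroplakin of the apical membrane, stood at 12.7, 1.08, 4.69 and 16.6 CPM in the 4 against 209 to 892 (median 392) CPM in the 11, and NMB, the peptide neuromedin B, at 17.0, 2.17, 1.82 and 28.5 CPM in the 4 against 321 to 1636 (median 611) CPM in the 11. In all 3 genes FR1_1 and FR3_4 held more than FR1_4 and FR2_3. SULT2B1, a sterol sulfotransferase, stood at 2.42, 0.549, 0.593 and 1.42 CPM in the 4 and 33.0 to 129.7 (median 73.7) CPM in the 11. TMC5, TMEM63C, FAXDC2 and SLC6A15, with LAMA3 and SLC26A4, were also among the 15 genes of the widest gaps. Their log2 differences were -6.34 for TMC5, -5.15 for TMEM63C, -5.59 for FAXDC2 and -5.67 for SLC6A15. The unnamed gene LOC100524016 was the other of the 15, at 0.288, 0.0878, 0 and 0.403 CPM in the 4 and 9.02 to 46.5 CPM in the 11. It had 41 counts over the 4 and passed the filter through other libraries, so nothing is read from its separation. All CONTROL libraries lay below the 11 for RAB27B (5.68 to 148 CPM), NMB (0.356 to 112 CPM), TMC5, TMEM63C and FAXDC2. They reached into the range of the 11 for UPK3A (3.81 to 704 CPM), SULT2B1, SLC6A15, LAMA3 and SLC26A4. For LOC100524016 they ran from below the 11 to above them (6.83 to 198 CPM). The 15 genes were picked for the widest gaps, with the 11 high. Single CONTROL libraries lay below all 11 for 16.9 to 24.6% of all genes, so nothing is read from these places.

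Some ion transport genes were among those furthest below the 11 in the 4 libraries. Of 26 measured genes of ion and water transport, 7 lay below all 11 and 1 above, with a median log2 difference of -1.20 (-0.51 without FR3_4). SLC26A4, the chloride and bicarbonate exchanger pendrin, stood at 29.2, 0.154, 0.0766 and 18.8 CPM in the 4 against 357 to 2794 (median 807) CPM in the 11 and 66.1, 0.997, 89.7, 11.9 and 415 CPM in CONTROL_1 to CONTROL_5. FR1_4 and FR2_3 were close to 0, as for WNT7A. CA12, a membrane carbonic anhydrase, stood at 0.384, 0.0878, 0 and 0.613 CPM in the 4 against 5.06 to 101 (median 23.1) CPM in the 11 (-7.15). CA12 had 58 counts over the 4 and passed the filter through other libraries, so nothing is read from its separation. FXYD4, a regulator of the sodium pump, stood at 1.63, 0, 0 and 10.1 CPM in the 4 against 10.4 to 200.1 (median 67.1) CPM in the 11, so that FR3_4 lay just under the lowest of the 11. SCNN1A, a subunit of the epithelial sodium channel, had a log2 difference of -3.64, TRPV6, a calcium channel, of -3.29, and SLC12A2, a sodium, potassium and chloride carrier, of -1.50. SLC4A4, a sodium and bicarbonate carrier, was the member above all 11, at 7.19, 8.78, 9.30 and 8.40 CPM in the 4 against 1.73 to 6.90 (median 4.10) CPM in the 11.

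Among 27 measured nutrient transporters 8 lay below all 11 and 1 above, with 14 lower and 13 higher. The median was -0.17, and it ran from -0.38 without FR3_4 to 0.08 without FR1_4, with -0.10 to -0.07 without FR1_1, FR1_2, FR1_5 or FR3_2. SLC5A1, the sodium-driven glucose carrier, stood at 5.23, 0.746, 0.995 and 12.1 CPM in the 4 against 44.9 to 289.8 (median 112) CPM in the 11 (-4.88). SLC2A3, a glucose carrier of high affinity, stood at 40.3, 30.4, 36.9 and 63.9 CPM in the 4 against 225 to 851 (median 327) CPM in the 11 (-3.10), and SLC2A1, the widespread glucose carrier, at 40.8, 37.8, 32.4 and 40.8 CPM in the 4 against 46.8 to 129.9 (median 59.6) CPM in the 11 (-0.86). All 3 glucose carriers lay below the 11, by unequal amounts. SLC27A6, a fatty acid transporter, and SLC7A3, a carrier of cationic amino acids, had log2 differences of -4.55 and -5.58. SLC7A3 had 83 counts over the 4 and passed the filter through other libraries, so nothing is read from its separation. SLC1A5, a glutamine carrier, was slightly higher, at 39.2, 42.5, 35.6 and 35.9 CPM in the 4 against 12.1 to 34.8 (median 27.5) CPM in the 11.

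Beside CYP26A1, 4 of the 21 measured retinoid genes lay below all 11, and none above. STRA6, the receptor that takes up retinol, stood at 3.62, 3.58, 5.48 and 6.60 CPM in the 4 against 11.6 to 45.2 (median 26.7) CPM in the 11. RXRA, a nuclear receptor that pairs with the retinoic acid receptors, stood at 57.9, 54.8, 57.4 and 50.8 CPM in the 4 against 118 to 459 (median 233) CPM in the 11. ALDH1A2 and RDH10, enzymes that make retinoic acid and its precursor, had log2 differences of -1.36 and -1.16. The other 16 members overlapped, 8 of the 21 were higher and the list's median was -0.29 (-0.15 without FR1_4, -0.18 with library totals alone). RBP4, the retinol carrier, stood at 13.7, 31.1, 12.2 and 23.4 CPM in the 4 and 2.37 to 38.8 (median 12.5) CPM in the 11, with overlap.

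Of 22 measured prostaglandin genes 4 lay below all 11, beside 7.48% of all genes. The list was split, with 11 lower and 11 higher and a median of 0.03 (-0.02 without the filter on low counts or without FR1_4, 0.28 without FR2_3). PTGS2, the inducible cyclooxygenase, was at 0 in FR1_1, FR1_4 and FR2_3 and at 0.436 CPM in FR3_4, against 1.61 to 36.1 (median 7.65) CPM in the 11 and 7.36 to 414 CPM in CONTROL. PTGS2 had 27 counts over the 4 and passed the filter through other libraries, so nothing is read from its separation. PLA2G4A, the phospholipase that frees arachidonic acid, stood at 3.55, 1.47, 4.69 and 7.95 CPM in the 4 against 24.2 to 119 (median 42.8) CPM in the 11. HPGD, which inactivates prostaglandins, stood at 41.1, 13.5, 11.3 and 43.8 CPM in the 4 against 114 to 644 (median 297) CPM in the 11, and PTGER4, a prostaglandin E receptor, at 10.0, 9.24, 8.88 and 13.1 CPM in the 4 against 27.0 to 59.2 (median 34.4) CPM in the 11. PTGES, a prostaglandin E synthase, overlapped, with FR1_4 inside the range of the 11 (-1.33).

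Of 36 measured Wnt genes 5 lay below all 11, beside 7.48% of all genes, and 24 had a positive difference, with a median of 0.37. Within FR2, 19 of the 36 were higher and 17 lower. Beside WNT7A and WNT7B, the ligand WNT5A stood at 24.5, 12.5, 17.4 and 24.3 CPM in the 4 against 32.7 to 145 (median 71.3) CPM in the 11. The receptor FZD5 stood at 48.9, 34.5, 64.3 and 45.0 CPM in the 4 against 144 to 642 (median 225) CPM in the 11, and FZD6 at 14.2, 13.7, 25.4 and 23.5 CPM in the 4 against 26.0 to 95.7 (median 49.6) CPM in the 11. AXIN2, a common target of Wnt signalling, stood at 50.7, 78.7, 71.0 and 51.0 CPM in the 4 and 25.9 to 68.7 (median 48.1) CPM in the 11, with overlap. RSPO1, a secreted enhancer of Wnt signalling, was higher at 58.1, 69.8, 51.4 and 64.3 CPM in the 4 against 10.8 to 62.0 (median 20.7) CPM in the 11, with overlap.

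In the list of 15 steroid and oxytocin receptor genes, GPER1, a membrane estrogen receptor, stood at 37.1, 23.3, 27.2 and 34.5 CPM in the 4 against 82.3 to 256 (median 141) CPM in the 11. NCOA2, a coactivator of nuclear receptors, stood at 27.4, 21.2, 29.4 and 28.8 CPM in the 4 against 65.3 to 237 (median 94.0) CPM in the 11, and PGRMC2, a membrane protein linked to progesterone, at 46.9, 40.1, 45.5 and 59.1 CPM in the 4 against 73.1 to 153 (median 89.1) CPM in the 11. These 3 of 15 lay below all 11, beside 7.48% of all genes, and no member lay above. The list's median was -0.09, and it changed sign without FR3_2 (0.0091), without FR3_4 (0.0031) and with library totals alone (0.0057). The receptors PGR and ESR1 overlapped, and ESR1, the estrogen receptor alpha, stood at 319, 325, 435 and 359 CPM in the 4 and 184 to 361 (median 259) CPM in the 11.

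Among 28 measured rows of a histotroph and receptivity list, 5 lay below all 11, beside 7.48% of all genes, and 17 were lower. The median was -0.41, and it was -0.19 without FR1_1, -0.17 without FR1_4, -0.67 without FR2_3 and -0.12 without FR3_4. LPAR3, a receptor for lysophosphatidic acid needed for embryo spacing in mice, stood at 4.34, 3.73, 4.59 and 4.18 CPM in the 4 against 20.6 to 74.1 (median 33.5) CPM in the 11. ACP5, the iron-carrying uteroferrin secreted by pig glands, stood at 4.60, 3.25, 5.38 and 7.90 CPM in the 4 against 14.1 to 40.5 (median 22.1) CPM in the 11 and 11.6 to 2414 CPM in CONTROL. FGF9, a growth factor of the uterine epithelium, had a log2 difference of -3.18 and FGFR2, a receptor for fibroblast growth factors, of -1.06. In the list of matrix and basement membrane genes, 18 of 27 measured members were higher in the 4, with a median of 0.34. Within FR2, however, 20 of the 27 were lower. Of the 27, 1 lay below all 11, beside 7.48% of all genes. That member, FRAS1, a basement membrane protein, stood at 16.9, 24.6, 16.5 and 11.5 CPM in the 4 and 49.8 to 262 (median 97.2) CPM in the 11. In a list of early embryo and trophoblast genes 1 of 9 measured members lay below all 11, beside 7.48% of all genes. That member, TFAP2C, a transcription factor of trophoblast and of some epithelia, had no count in any of the 4 and 0.305 to 1.18 (median 0.677) CPM in the 11. TFAP2C thus passed the filter through other libraries alone, and nothing is read from its separation. A floor of 3 counts over the 4 libraries corresponds to 0.0149 CPM.

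Interferon-stimulated genes, which cells switch on when interferon acts on them, were lower in the 4 libraries over most of the list. Of 35 measured members 23 lay below all 11, none above, and 34 had a negative difference, with a median of -1.42. Within FR1 all 35 were lower, within FR2 31 and within FR3 34. IFIT2, an inhibitor of viral translation, stood at 9.79, 4.46, 11.3 and 16.1 CPM in the 4 against 78.6 to 263 (median 125) CPM in the 11 and 11.4 to 136 CPM in CONTROL. RSAD2, the antiviral enzyme viperin, stood at 1.27, 1.05, 2.49 and 1.44 CPM in the 4 against 3.95 to 33.7 (median 8.58) CPM in the 11, and MX1, an antiviral GTPase, at 17.7, 14.0, 31.2 and 33.9 CPM in the 4 against 42.6 to 221 (median 78.0) CPM in the 11. The 4 libraries lay low in all 3 genes, with FR1_4 the lowest of the 4.

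IFI6 stood at 53.5, 43.1, 117 and 162 CPM in the 4 and 251 to 993 (median 367) CPM in the 11, and RTP4 at 18.4, 12.2, 22.2 and 31.5 CPM in the 4 and 47.1 to 130.3 (median 81.9) CPM in the 11. The transducers IRF9 and STAT2, which carry the interferon signal to the nucleus, had log2 differences of -1.15 and -0.91 and lay below all 11. ISG15, a ubiquitin-like protein, overlapped (-1.68), with FR3_4 inside the range of the 11. CXCL10, a chemokine that draws T cells, stood at 1.51, 0.834, 2.47 and 1.74 CPM in the 4 against 3.79 to 14.5 (median 4.78) CPM in the 11. The list's mean of log2(CPM + 0.5) was 2.85 to 3.60 in the 4, 4.04 to 5.53 in the 11 and 3.85 to 5.12 in CONTROL, so no library of either other set was as low as the 4.

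**Figure D3:**
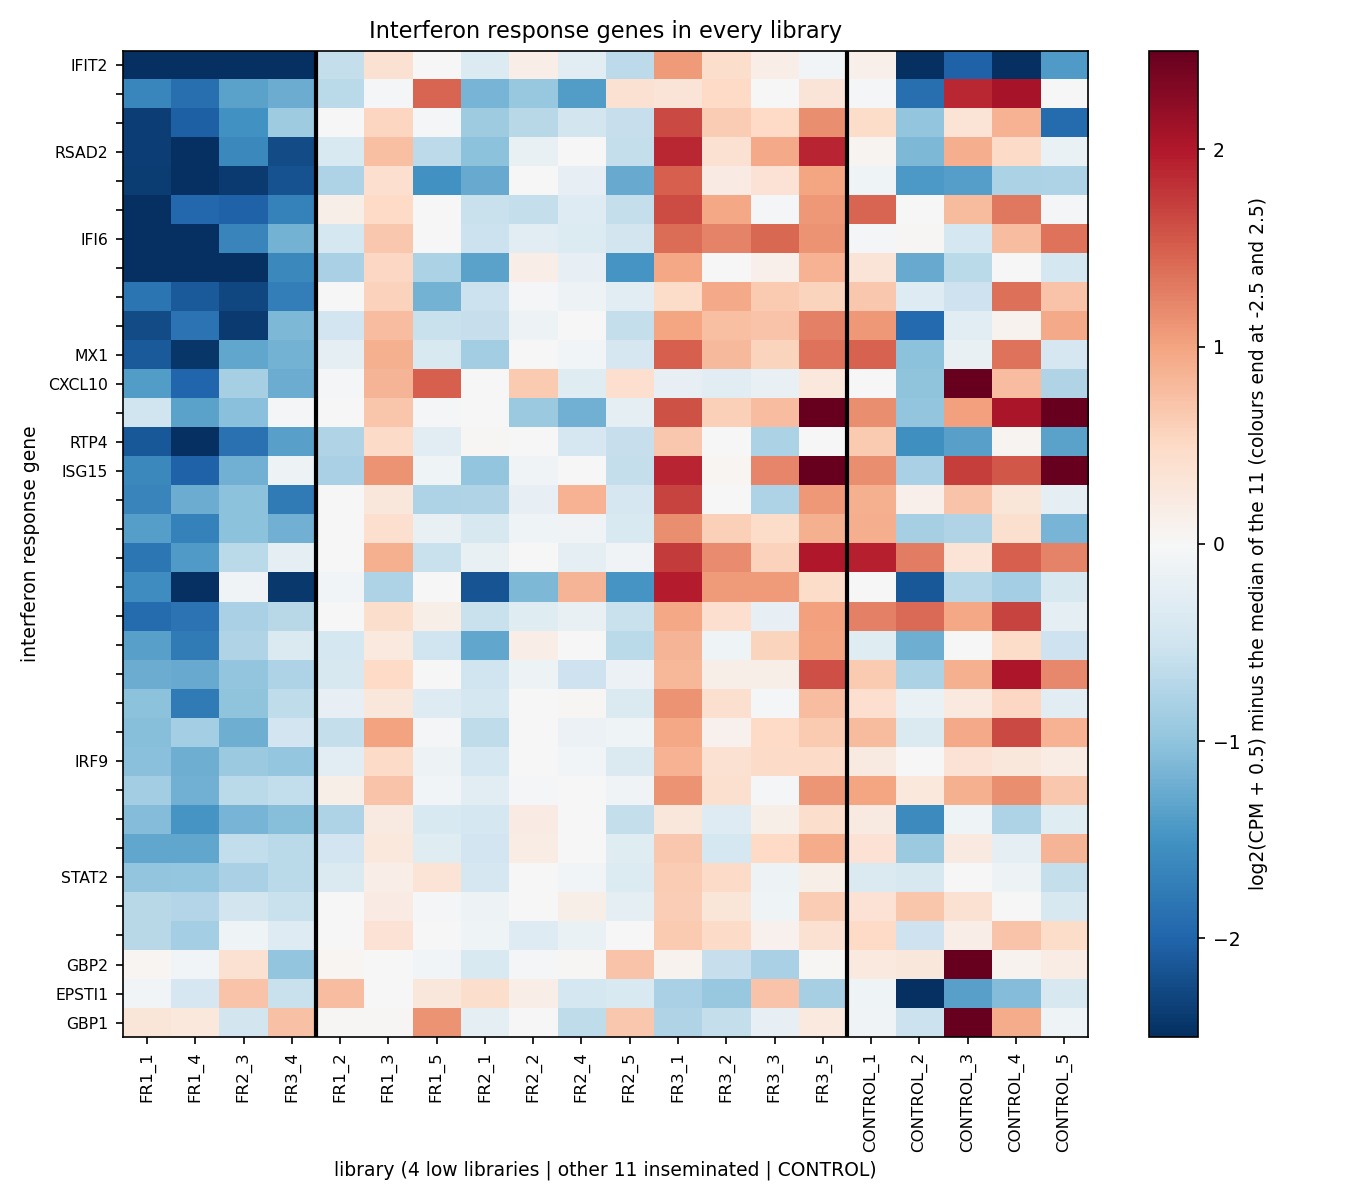
Of the 35 measured interferon response genes, 34 are drawn in every library, with names for those described in the text, as log2(CPM + 0.5) minus the median of the other 11 inseminated libraries. Columns run from the 4 libraries over the 11 to CONTROL, and blue is below and red above that median. The left block is blue for most rows, and the exceptions at the foot are GBP2, EPSTI1 and GBP1.

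Antigen presentation genes were lower to a lesser degree, with a median of -0.60. Of 24 members 4 lay below all 11, beside 7.48% of all genes, and none above. SLA-2, a class I major histocompatibility molecule of the pig, stood at 93.3, 126, 94.4 and 83.7 CPM in the 4 against 128 to 536 (median 257) CPM in the 11. The SLA genes are near-identical copies, so that reads could be split among them and this value is uncertain. PSMB8, a subunit of the immunoproteasome, TAP1, the peptide transporter, and TAPBP, which loads peptides, had log2 differences of -1.13, -0.98 and -0.66. T and NK cell genes had a median of -1.14 with 12 of 15 lower and none separating the sets, and macrophage and dendritic cell genes a median of -0.57 (-0.30 without FR1_4) with 12 of 15 lower and none separating. Taken alone, FR1 had 14 of the 15 macrophage genes lower, FR2 had 8 and FR3 had 8, while the T and NK cell genes were lower in 13, 11 and 12 of 15 cases. CD3E, a chain of the T cell receptor complex, stood at 1.25, 2.31, 1.49 and 3.97 CPM in the 4 and 2.63 to 12.7 (median 4.30) CPM in the 11, and CD68, a macrophage lysosomal protein, at 2.23, 1.60, 3.91 and 3.79 CPM in the 4 and 3.45 to 10.2 (median 7.25) CPM in the 11. The mean of log2(CPM + 0.5) over the T and NK cell list was 0.55 to 0.94 in the 4, 0.89 to 2.15 in the 11 and 0.81 to 2.13 in CONTROL, and over the macrophage list 1.86 to 2.92, 2.45 to 3.25 and 1.91 to 3.77 in the same order of sets. B and plasma cell genes went the other way, with 7 of 9 higher and a median of 0.25 (0.02 without FR3_4, 0.42 without FR1_5). Of 9 neutrophil genes 6 were lower, and their median of -0.28 changed sign without FR1_4 (0.06) or FR3_4 (0.02). The T and NK cell markers thus ran low with the interferon genes and the other leukocyte lists did so less evenly or not at all, and their part in that difference was not tested.

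HDC, the enzyme that makes histamine, stood at 41.7, 19.0, 33.3 and 34.3 CPM in the 4 libraries against 333 to 1455 (median 582) CPM in the 11 and 40.8 to 415 CPM in CONTROL, a log2 difference of -4.30. GATA2, a transcription factor of mast cells and of the uterine epithelium, stood at 155, 152, 148 and 119 CPM in the 4 against 229 to 637 (median 319) CPM in the 11. The mast cell receptors KIT and MS4A2 overlapped between the sets. KIT stood at 29.4, 27.9, 27.4 and 28.2 CPM in the 4 and 8.71 to 40.7 (median 22.4) CPM in the 11, and MS4A2 at 1.01, 0.659, 1.78 and 3.03 CPM in the 4 and 1.02 to 2.39 (median 1.55) CPM in the 11.

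Smooth muscle genes were higher in the 4 libraries as a list, yet no member separated the sets. All 31 measured members had a positive difference with a median of 1.00, and within FR2 6 of the 31 were lower. ACTA2, smooth muscle actin, stood at 6056, 4332, 2730.1 and 6365 CPM in the 4 and 887 to 3882 (median 2116) CPM in the 11. DES, the muscle filament desmin, stood at 4480.2, 4154, 2065 and 3566 CPM in the 4 and 531 to 2983 (median 1948) CPM in the 11. FR1_1, FR1_4 and FR3_4 lay above all 11 for both genes and FR2_3 lay inside their range. The list's mean of log2(CPM + 0.5) was 8.62 in FR1_1, 8.51 in FR1_4, 7.77 in FR2_3 and 8.62 in FR3_4, against 6.30 to 8.13 in the 11 and 5.38 to 8.89 in CONTROL. The part of smooth muscle RNA in the differences between the sets was not tested.

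Stromal genes had a median of 0.51 (0.32 without FR3_4), with 21 of 24 higher and MFAP4, a microfibril protein, above all 11 at 125, 108, 77.0 and 115 CPM in the 4 against 20.8 to 59.7 (median 49.9) CPM in the 11. Within FR2, 17 of the 24 stromal genes were lower. PDGFRA, a receptor of stromal fibroblasts, was lower at 25.5, 22.2, 34.8 and 37.6 CPM in the 4 against 22.8 to 119 (median 62.3) CPM in the 11, with overlap. Of 20 genes of endothelium and lymphatic vessels 19 were higher, with a median of 0.72 (0.46 without FR3_4). Within FR2, however, 8 of the 20 were lower, and within FR1 3 were. FLT4, the receptor that guides lymphatic growth, lay above all 11 at 10.8, 9.57, 13.2 and 24.6 CPM in the 4 against 2.60 to 8.29 (median 6.55) CPM in the 11. The lymphatic genes LYVE1 (12.9, 11.2, 20.3 and 46.5 CPM in the 4, 4.01 to 16.9 CPM in the 11), PROX1 (3.72, 2.28, 4.02 and 10.6 CPM in the 4 and 0.342 to 4.10 CPM in the 11) and MMRN1 (15.2, 10.3, 17.8 and 42.3 CPM in the 4 and 3.08 to 12.9 CPM in the 11) were highest in FR3_4. The 24 cell cycle genes were all higher in the fit, with a median of 0.61 (0.24 without FR2_3, 0.36 without FR1_4), but 10 were lower within FR3 and 3 within FR1. MKI67, a protein of dividing cells, stood at 25.4, 104, 105 and 6.10 CPM in the 4 and 3.00 to 64.8 (median 25.4) CPM in the 11.

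Hedgehog genes were mostly higher, with 14 of 15 positive, 3 above all 11, 1 below and a median of 0.59. Within FR2, however, 6 of the 15 were lower. IHH, the hedgehog ligand that progesterone induces in the uterine epithelium of mice, stood at 114, 189, 92.9 and 111 CPM in the 4 against 19.5 to 91.3 (median 61.7) CPM in the 11 and 3.78 to 111 CPM in CONTROL. SMO, the signal transducer, stood at 61.4, 64.5, 59.3 and 66.1 CPM in the 4 against 29.8 to 51.3 (median 42.4) CPM in the 11. The ligand and the transducer lay above all 11 even in FR2_3, whose GLI1 level was inside their range. CDON, a coreceptor, was the exception at 30.1, 33.8, 17.3 and 38.0 CPM in the 4 against 42.8 to 198 (median 67.9) CPM in the 11. PTCH1 stood at 56.7, 46.2, 58.1 and 83.2 CPM in the 4 and 35.3 to 85.5 (median 56.2) CPM in the 11, and the sign of its difference (0.19) turned to -0.12 without FR3_4.

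The genes that lay highest above all 11 had smaller differences than those below. SYT1, a calcium sensor of vesicle release, had the widest gap at 3.12, 1.84, 1.68 and 4.87 CPM in the 4 against 0.228 to 0.788 (median 0.460) CPM in the 11 (2.58). DAAM2, a formin of Wnt signalling, stood at 59.8, 60.2, 55.9 and 69.0 CPM in the 4 against 17.1 to 35.7 (median 27.1) CPM in the 11 (1.20), and DRD2, a dopamine receptor, at 6.57, 4.65, 4.67 and 6.15 CPM in the 4 against 0.683 to 3.03 (median 1.65) CPM in the 11 (1.80). The CONTROL libraries reached into both sets for each, with 0.370 to 3.14 CPM of SYT1, 8.95 to 65.5 CPM of DAAM2 and 0.838 to 6.50 CPM of DRD2. NGEF, a guanine nucleotide exchange factor, stood at 13.1, 9.22, 11.8 and 11.2 CPM in the 4 and 1.82 to 6.21 CPM in the 11, and SCG5, a chaperone of a prohormone convertase, at 12.0, 12.0, 10.1 and 13.2 CPM in the 4 and 1.14 to 7.08 CPM in the 11. GALNT12, an enzyme that starts mucin-type glycans, stood at 16.6, 18.0, 19.6 and 17.1 CPM in the 4 and 3.33 to 12.2 CPM in the 11, and DACT2, a regulator of Wnt and TGF-beta signals, at 47.9, 55.7, 73.3 and 42.3 CPM in the 4 and 8.29 to 36.7 CPM in the 11. RTN2, GLOD5, TTC9 and EPOP, with MFAP4 and FLT4, were also among the 15 genes of the widest gaps, with log2 differences of 1.07 for RTN2, 1.46 for GLOD5, 1.29 for TTC9 and 1.45 for EPOP.

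**Figure D4:**
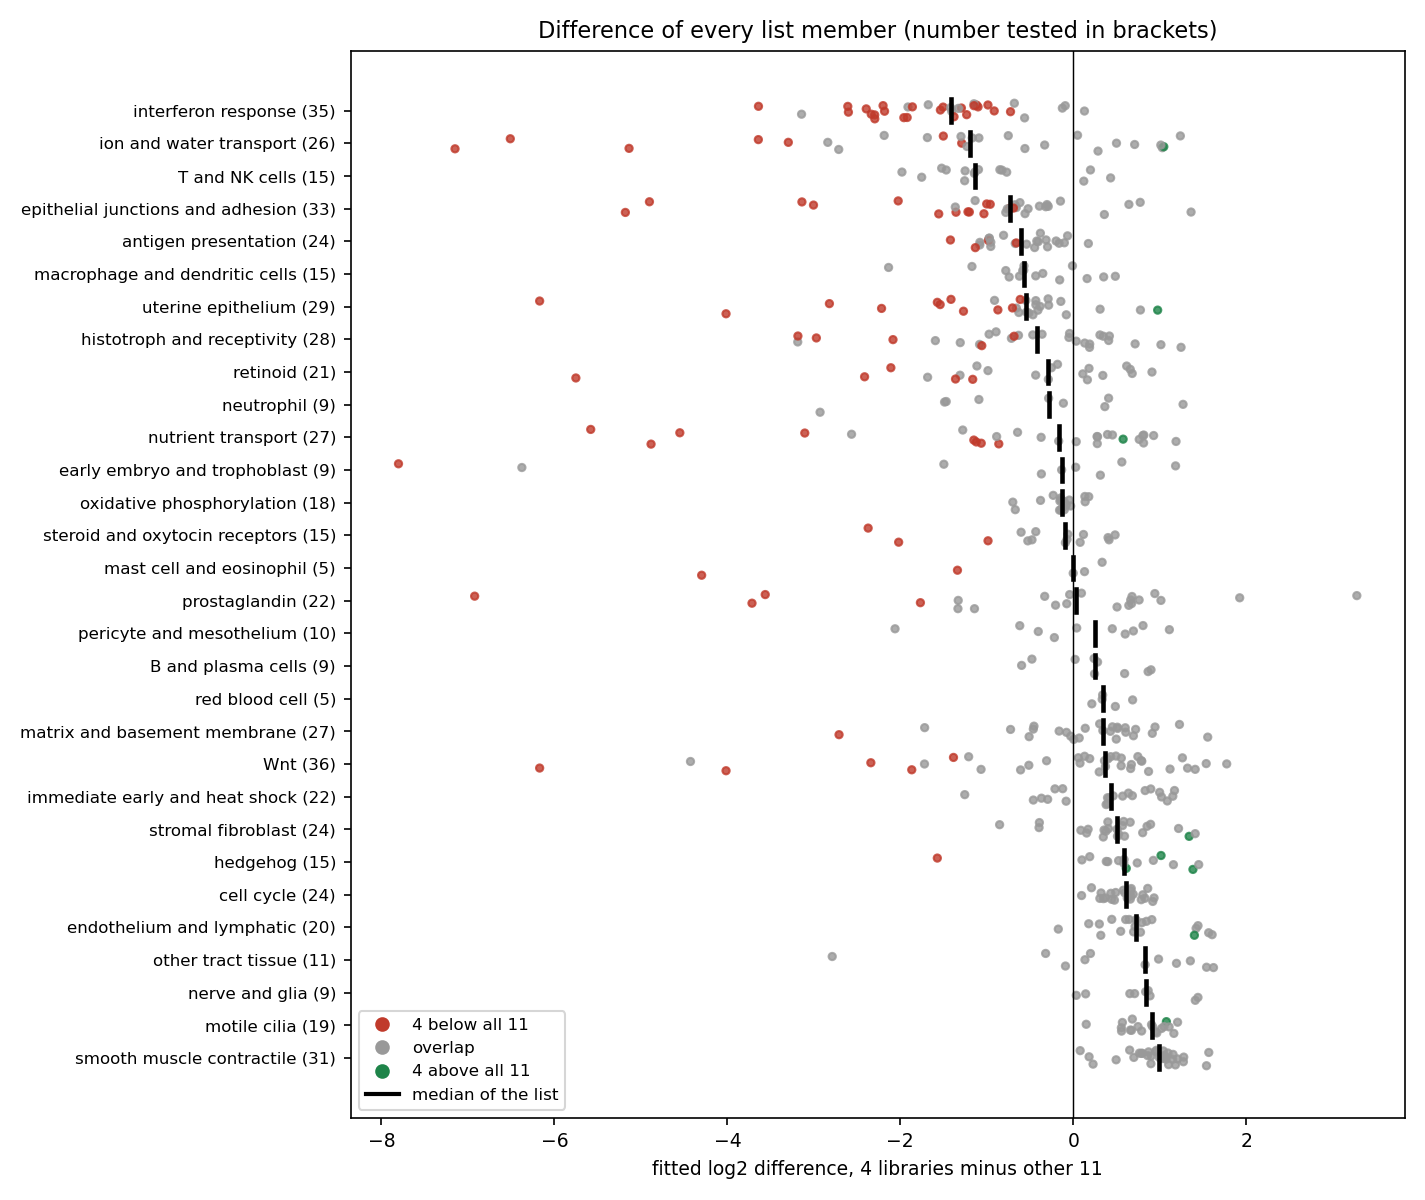
Fitted log2 difference of the 4 libraries minus the other 11 for each measured member of 30 gene lists, sorted by the list's median (black bar). Red dots lie below and green dots above all 11, and grey dots overlap. The medians run from -1.42 for interferon response to 1.00 for smooth muscle, where no member separates the sets.

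The 4 libraries were not alike in every respect. FR1_4 was the lowest of the 4 for 342 of the 844 genes, FR3_4 for 215, FR1_1 for 121 and FR2_3 for 121, while FR3_4 was the highest for 299, FR2_3 for 261, FR1_1 for 174 and FR1_4 for 98. Among genes at 5 CPM or more over the 4, the widest spread with a negative difference was in CYP26A1, SLC26A4 and CDH17, an intestinal-type cadherin (12.0, 0.198, 0 and 13.1 CPM in the 4, 80.8 to 751 CPM in the 11), and in the unnamed genes LOC100515579 and LOC110261948. Both unnamed genes also ranged widely in the 11, LOC100515579 at 0 to 77.7 CPM and LOC110261948 at 22.7 to 157 CPM.

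With a positive difference the widest spread was in MMP7, a matrix protease of epithelia, at 0.0959, 0.0659, 24.0 and 0 CPM in the 4 against 0 to 0.876 CPM in the 11. Its fitted difference was 3.19, and without FR2_3 it was -1.47. IGSF5, a junction protein, stood at 0, 11.8, 15.3 and 8.50 CPM in the 4, with no count in FR1_1, and 5.28 to 12.9 CPM in the 11. The other 3 of these 5 genes have no name. LOC110256649 stood at 0.0240, 67.7, 98.9 and 32.9 CPM in the 4 and 0.0243 to 50.2 CPM in the 11, and LOC100127131 at 19.0, 342, 410.1 and 24.3 CPM in the 4 and 23.5 to 295 CPM in the 11. LOC100525692 stood at 6.74, 97.2, 7.22 and 91.0 CPM in the 4 and 5.57 to 156 CPM in the 11, so all 3 ranged widely in both sets. TNC, the matrix protein tenascin C, was high in FR1_1 (279, 47.9, 51.7 and 63.7 CPM in the 4, 11.1 to 77.3 CPM in the 11), and RGS5, a pericyte regulator of G proteins, in FR3_4 (32.6, 30.3, 29.8 and 203 CPM in the 4, 22.5 to 59.0 CPM in the 11).

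The CONTROL libraries, which the choice did not use, lay between the sets for the 844 low genes in 4 of 5 cases, and CONTROL_1 lay within the 11. The 844 were picked with the 11 high and the 4 low. A place between the sets can follow from that alone, so nothing is read from it. The median level of these genes relative to the median of the 11 was -1.62 (log2) in FR1_1, -1.72 in FR1_4, -1.48 in FR2_3 and -1.57 in FR3_4, against -0.50 to 0.82 in the 11. It was -0.14, -0.67, -0.73, -1.24 and -0.77 in CONTROL_1 to CONTROL_5. Of the 844 genes, 258, 415, 435, 570 and 472 lay below all 11 in CONTROL_1 to CONTROL_5. Over all 17745 genes the same libraries lay below all 11 for 16.9, 18.1, 24.6, 22.3 and 23.9%, and the 844 were chosen with the 11 high, so nothing is read from these counts. Every CONTROL library lay above the 4 for KRT7 (163 to 573 CPM in CONTROL), EPCAM (253 to 553 CPM) and MX1 (38.1 to 218 CPM), whereas the lowest reached the level of the 4 for WNT7A, SLC26A4 and IFIT2. The rank correlation over all genes averaged 0.908 between the 4 and CONTROL and 0.918 between the 11 and CONTROL.

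**Figure D5:**
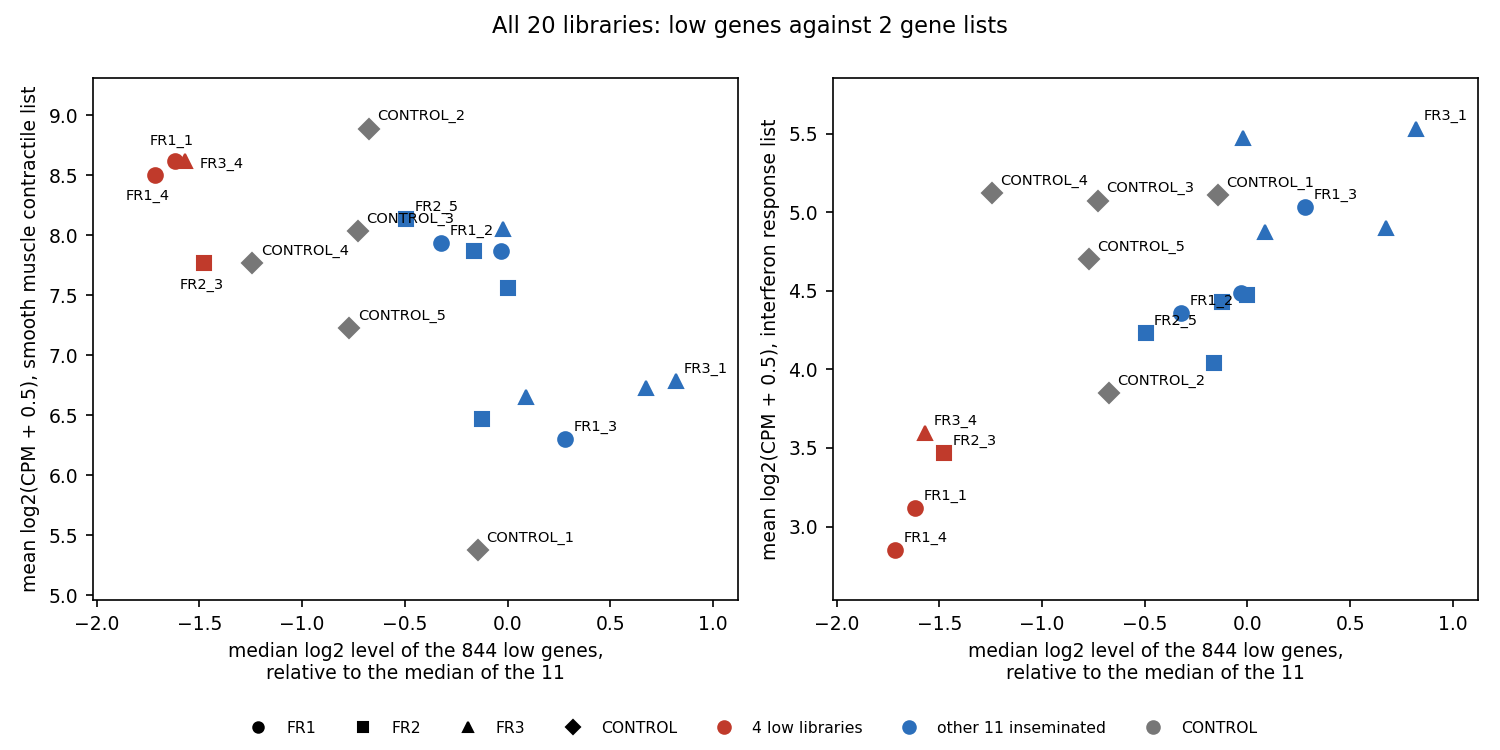
Each of the 20 libraries by the median log2 level of the 844 low genes, relative to the median of the other 11 inseminated libraries, against its mean log2(CPM + 0.5) over the smooth muscle list (left) and the interferon list (right). Red points are the 4 libraries, blue the other 11 and grey CONTROL, with marker shape for the treatment group. The 4 lie at the left edge of both panels, as the choice of the 844 genes sets. In the left panel FR2_3 lies among the 11 in height.

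The treatment groups were compared over all 20 libraries by the quasi-likelihood test of edgeR, with p-values adjusted by Benjamini-Hochberg over all genes. The fit was repeated without the 4 libraries, which were chosen by their measured levels, so the counts of that second fit describe how far the calls rest on the 4 and are no test of their own. Each sow gave 1 library, so the replicates are animals. Inseminated against CONTROL sows, 1965 genes (11.1% of 17745) passed an adjusted p of 0.05 with all 20 libraries, 510 higher (2.87%) and 1455 lower (8.20%) after insemination. Without the 4, 1955 (10.8% of 18164) passed, 666 higher (3.67%) and 1289 lower (7.10%), and 1477 genes were called in both fits (75.2% of the first list and 75.5% of the second). The uterine epithelium list had 13 of 29 genes lower with all 20 libraries, and 12 lower and 1 higher without the 4. The interferon list had 6 of 35 lower with all 20 and 4 lower without the 4, and smooth muscle genes had no call in either fit. Without CONTROL_3 the 1965 calls became 988.

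The 7 markers behaved unequally in this comparison. ELF3 was lower in inseminated sows by edgeR with a log2 difference of -3.15 ± 0.39 (SE, adjusted p = 0.000112), and the value without the 4 was -3.05. EPCAM was also lower, with a log2 difference of -0.92 ± 0.17 (edgeR adjusted p = 0.00218) and a value of -0.85 without the 4. GLI1 was higher by 2.69 ± 0.46 (edgeR adjusted p = 0.000972), with 2.35 without the 4. WNT7A did not pass, with a log2 difference of 0.90 ± 1.16 (edgeR adjusted p = 0.676) over all libraries. Nor did CYP26A1, at 1.93 ± 1.56 (edgeR adjusted p = 0.47). MYH11 and PGR did not pass either (edgeR adjusted p of 0.83 and 0.203). All 7 genes marked the choice of the 4 libraries. The values without the 4 for ELF3, EPCAM and GLI1 are therefore a description and no check of the calls. Those for WNT7A and CYP26A1, in which the 4 libraries were low by choice, are not given.

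By treatment group the number of calls changed unequally without the 4 libraries. FR1 sows, whose group holds 2 of the 4, had 461 genes called against CONTROL with all libraries (2.60%), 108 higher (0.609%) and 353 lower (1.99%), and 22 without the 4 (0.121%), 21 higher (0.116%) and 1 lower (0.00551%), with 10 in common. Of the FR1 calls, 8 of 29 uterine epithelium genes and 7 of 33 junction genes were lower with all libraries, and none of either list was called without the 4. The second fit also has 3 FR1 libraries in place of 5, and leaving out a single FR1 library left 99 calls (without FR1_2) to 256 calls (without FR1_3). The FR1 calls were 151 without CONTROL_3, 855 without CONTROL_1 and 1372 without CONTROL_5. FR2 sows had 985 calls (5.55%) and 474 without the 4 (2.61%), 402 of them shared, and leaving out a single FR2 library left 309 (without FR2_1) to 510 (without FR2_3), while 425 were made without CONTROL_3 and 1881 without CONTROL_5. FR3 sows had 758 calls (4.27%) and 851 without the 4 (4.69%), 482 of them shared. The FR3 count was 74 without FR3_1, 58 without FR3_2, 475 without FR3_3 and 356 without FR3_5, and it was 1377, 214, 452 and 1869 without CONTROL_1, CONTROL_3, CONTROL_4 and CONTROL_5. GLI1, ELF3 and EPCAM were called in FR1 sows with all libraries (edgeR adjusted p of 0.0109, 0.0109 and 0.0193). Their log2 differences were 2.82, -3.28 and -1.06. Without the 4 none of these genes was called, and their differences of 2.30, -3.05 and -0.92 are a description only. Between FR3 and FR1 sows edgeR called no gene over all libraries (0%), with 1471 genes at an unadjusted p under 0.05, while limma-voom called 0 and DESeq2 called 12. These group comparisons share the CONTROL libraries.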

How the data were processed

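Messenger RNA of 20 pig uteri was sequenced as 150 bp read pairs, per the labels' protocols. The submitters' processing notes name CASAVA, STAR 2.7.9a and Salmon 1.10.1. The genome build and the strand setting are not given in the sources used here, so reads of overlapping antisense genes could not be told apart. The authors deposited 1 table of expected counts per gene, estimated by Salmon and not whole numbers in every cell (87.2% are whole, within 1e-06). Columns named by group and number were assigned to the treatment group alone.

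Of 30369 rows, 24 that name no gene (0.0036% to 0.0133% of counts) were left out. Counts were rounded and filtered with filterByExpr of edgeR 4.0.16 (R 4.3.3), which left 17745 genes, and scaled by TMM. The 4 libraries were described by a log2 difference from 1 model of all 20 libraries, with treatment group and membership of the 4 as terms (16 residual degrees of freedom), and log2(CPM + 0.5) per library. Treatment groups were compared by edgeR's quasi-likelihood test with Benjamini-Hochberg adjustment, with alternatives in limma 3.58.1 and DESeq2 1.42.0. The pipeline was tested on simulated data. Of 673 memberships in 31 lists, 600 passed the filter. A member that passed through the group where it is high had to differ, so list counts describe measured members.

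The 4 libraries and the lists were chosen with earlier results of these data known. Genes were named as the 7 markers, the 15 widest gaps per direction between the sets (mean of at least 2 CPM and a 2-fold difference), up to 4 separated members per list, other list members needed to describe a list, and the 5 widest spreads among the 4 per direction. Precision is limited by 4 libraries over 3 groups, and floors cover counting error alone. No sequences are shown, and levels were not compared between genes, for want of gene lengths of the build used. Some genes that the rule names are not reported here.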

Additional observations from a re-analysis of the deposited data

Results flagged for a closer look

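Within the 4 libraries and within CONTROL, 149 genes were screened for a library far from the rest of its set, by Dixon's ratio on log2(CPM + 0.5). Among CONTROL 11 of 149 were marked, where chance alone marks about 1 in 20 sets. Among the 4, 9 were marked, but these libraries were chosen by their levels and some genes were named for their wide spread among them, so that chance rate does not apply and the values below are a description. FR2_3 stood high among the 4 for KRT7 (38.6 CPM), CLDN4 (91.2 CPM) and MMP7 (24.0 CPM). FR3_4 stood high for PTGS2 (0.436 CPM against 0 in the other 3), PECAM1, an endothelial adhesion molecule (154 CPM), and RGS5 (203 CPM), and low for GRHL2, an epithelial transcription factor (40.2 CPM). FR1_1 stood high for TNC (279 CPM) and low for IGSF5 (0 CPM).

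Among CONTROL, CONTROL_1 stood low for the muscle genes ACTA2 (222 CPM) and TAGLN (361 CPM) and for RTN2 (2.18 CPM). CONTROL_3 stood high for EPCAM (553 CPM), SLC2A1 (3391 CPM) and IGSF5 (66.9 CPM). CONTROL_4 stood low for RAB27B (5.68 CPM) and NMB (0.356 CPM) and high for TFAP2C (2.87 CPM). CONTROL_2 stood high for ITGA6 (501 CPM) and CONTROL_5 for GLOD5 (16.6 CPM).

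In 4 genes the chosen libraries lay on opposite sides of their own groups, a difference that was not tested. ELF3 (fitted log2 difference -0.6573) lay above all other FR2 libraries in FR2_3 and below those of FR1 and FR3 in the other 3. GLI1 (0.9263) lay below the other FR2 libraries in FR2_3 and above those of FR1 and FR3 in the other 3. MS4A2 (-0.0001) lay above the other FR3 libraries in FR3_4 and below those of FR1 in FR1_1 and FR1_4. RGS5 (0.4518, and -0.53 without FR3_4) lay above the other FR3 libraries in FR3_4 and below those of FR2 in FR2_3.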

How the results depend on the processing

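The difference of the 4 libraries from the 11 was recomputed under 8 other settings and with each of the 15 inseminated libraries left out. The numbers of genes below all 11, and the medians of the interferon and smooth muscle lists, stayed within 1.5 times or within the spread of libraries under every setting. With library totals alone 357 genes lay above all 11 and 113 at a log2 difference of 1 or more, and the median of all genes was 0.086, a shift of 0.10. Leaving out a library leaves fewer to separate and also changes filter and scaling. It gave 230 to 878 genes above and 68 to 297 at a log2 difference of 1 or more. The medians were then -0.79 to -0.22 for uterine epithelium and -1.08 to -0.43 for junctions. Against CONTROL, limma-voom called 1308 genes for all inseminated sows, 185 for FR1 and 295 for FR3, and DESeq2 called 1450 for FR1, 2125 for FR2, 1876 for FR3 and 12 for FR3 against FR1. Without the 4 the calls were 22 for FR1 and 474 for FR2. Leaving out each library gave 988 (without CONTROL_3) to 2730 calls for all inseminated sows, 99 (without FR1_2) to 1372 for FR1, 309 (without FR2_1) to 1881 for FR2 and 58 (without FR3_2) to 1869 for FR3, each highest without CONTROL_5. The cause was not tested. No paired analysis was possible because the labels number the sows once across all groups. The 4 libraries fall in 3 groups, of which 2 hold a single one, so a difference in FR2 or FR3 rests on 1 sow.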
